A study of Mus musculus with 5 samples.

Results

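The comparison described here is that of BV-2 mouse microglial cells given trazodone at its highest dose before exposure to particles with cells exposed to the particles alone. It sets the library labelled UPM_TZ_5 against the library labelled UPM. Its members are the protein-coding genes with a mean of at least 10 counts per 1e+06 counts of the library (CPM) over these 2 libraries, which were 8052 of 40879 gene symbols in the files and of 20361 protein-coding symbols. The mean level chose the genes, and no difference between the libraries did.

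Messenger RNA was measured by QuantSeq, which primes total RNA with oligo-dT and reads fragments from the 3′ end of each transcript. BV-2 is an immortalised mouse microglial line and served as the model of brain microglia. There were 5 libraries, 1 per group, so no difference has a replicate check and every fold compares 2 libraries and not 2 conditions. The control is labelled as a normal control, and the labels do not say whether its cells were given a vehicle. The UPM library came from cells exposed to urban particulate matter at 50 µg/mL for 23 h. The other 3 libraries had the same exposure after pretreatment for 1 h with trazodone (TZ) at 1.25, 2.5 or 5 µg/mL, called TZ 1.25, TZ 2.5 and TZ 5 here. Cells given trazodone without particles were not analysed here, so trazodone and its effect on the response to particles cannot be told apart.

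Microglia are the resident phagocytes of the brain. They take up particles and debris, sense microbial and damage signals through Toll-like receptors, respond to interferons through interferon receptors, and release cytokines and chemokines. Trazodone is an antidepressant that blocks serotonin 5-HT2A receptors, alpha-1 adrenergic and histamine H1 receptors and inhibits the serotonin transporter. It is also known to relieve the block on protein synthesis that phosphorylation of the initiation factor eIF2 alpha causes in the integrated stress response.

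Library totals ran from 6829720 to 7696168 counts, and the limit for a gene with no counts, 3 counts, was 0.390 to 0.439 CPM. Of 15 microglial markers 12 were measured, and the summed level of the 15 was 3874 CPM in UPM and 4162 in TZ 5. Csf1r, the receptor of the microglial growth factor CSF1, was at 586 and 657 CPM and the calcium-binding marker Aif1 at 237 and 319, while the homeostatic markers Tmem119, at 7.45 and 4.50, and P2ry12, at 1.18 and 1.6, were low (these 4 genes were chosen after their values were seen). No marker of neurons, astrocytes, oligodendrocytes, fibroblasts or T and B cells was measured, out of 7, 7, 7, 6 and 7 names, and their summed levels in the 5 libraries ran from 0.133 to 11.6 CPM per list. Of 6 endothelial markers 2 were measured and 0 were called, and the summed level of the 6 was 275 to 309 CPM. Small nucleolar RNAs, which carry no poly(A) tail, took 0.189% of counts in the control, 0.234% with UPM, 0.209% at TZ 1.25, 0.150% at TZ 2.5 and 0.108% at TZ 5, and mitochondrial ribosomal RNA took 8.80% in UPM and 7.06% in TZ 5.

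Genes counted as called, higher or lower, had a fold in TZ 5 over UPM of at least 1.5 in either direction with a 95% counting interval that excluded 1. Levels are CPM scaled by TMM factors, and intervals in parentheses cover counting error only. By this rule 292 genes, 3.63% of those measured, were higher in TZ 5 than in UPM and 191 genes, 2.37%, were lower. The median log2 fold of all measured genes was 0.00, the middle 90% lay between −0.47 and 0.53, and 63.1% of genes were within 1.2-fold. A fold of at least 2 was reached by 9 genes upward and 5 downward. Called genes lay at lower levels than measured genes as a whole. Their median level was 24.4 CPM for those called higher and 22.1 for those called lower, beside 46.3 over all measured genes. Of the 68 genes with a mean of at least 1000 CPM, 3 were called higher, which were the mitochondrial mRNAs ND4 and CYTB and the microglial membrane gene Gpnmb, and 3 lower, Pabpc1, Slc38a2 and Timp2. The genes next to the limit were Arid4b at 1.501-fold, called, and Srsf11 at 1.49995-fold, not called.

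**Figure D1:**
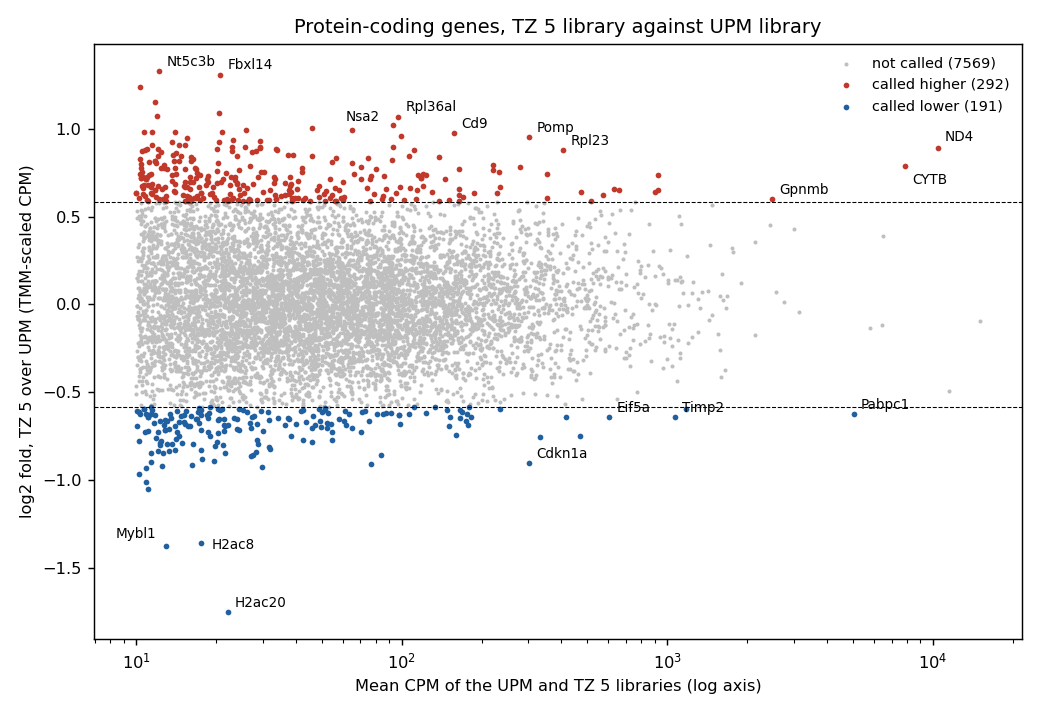
Each point is 1 protein-coding gene, with the mean CPM of the UPM and TZ 5 libraries on a log axis and the log2 fold of TZ 5 over UPM on the vertical axis. The dashed lines mark 1.5-fold, red points are the 292 genes called higher, blue points the 191 called lower, and the histone genes H2ac20 and H2ac8 lie at the bottom with Mybl1.

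The other pairs of libraries, counted by the same rule, put this number in context. TZ 5 against the control gave 278 higher and 157 lower (5.42% either way beside 6% for TZ 5 against UPM), and UPM against the control gave 122 and 104 (2.84%). TZ 1.25 against UPM gave 88 and 80 (2.1%), and TZ 2.5 against UPM 210 and 117 (4.07%). These comparisons share libraries with the pair described, so the counts are set side by side without a test. TZ 5 lay nearest to TZ 2.5, with 51 genes higher and 42 lower (1.15%).

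For some called genes the control value shows which of the 2 libraries lies away from it. Of the 292 genes called higher, 99 (33.9%) were also at least 1.5-fold above the control in TZ 5, and UPM was not 1.5-fold below the control. For 35 (12%) the UPM library was at least 1.5-fold below the control and TZ 5 was within 1.5-fold of it, and for 158 (54.1%) neither library passed 1.5-fold from the control. Of the 191 genes called lower, the same split was 55 (28.8%), 22 (11.5%) and 114 (59.7%). In both directions the control lay nearer to UPM than to TZ 5 for about the same share of genes, 65.4% of those higher and 67% of those lower.

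Among the highest folds the control sorted the genes into both kinds. Nt5c3b, a nucleotidase that acts on cap-derived nucleotides, was at 13.8 CPM in the control, 6.93 with UPM, 9.84 at TZ 1.25, 16.9 at TZ 2.5 and 17.4 at TZ 5, a fold of 2.51 (1.80 to 3.54) over UPM and 1.26 over the control. Its UPM value was the low one. Thap1, a zinc-finger transcription factor gene, at 12.2, 7.32, 12.2, 12.6 and 16.2 CPM in the same order, was 2.22-fold over UPM (1.6 to 3.12) and 1.33-fold over the control. Ggact, a cyclotransferase gene, the thioredoxin-domain gene Txndc15, the Wnt co-receptor gene Lrp5 and Ccdc174 also had the control nearer to TZ 5, with folds of 2.11, 2.01, 1.99 and 1.97 over UPM and 1.36, 1.25, 1.24 and 1.32 over the control. Cog7, of the Golgi tethering complex, had its control about midway, at 2.13-fold over UPM and 1.46-fold over the control.

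Other folds of the same size were about as large, or larger, against the control. Fbxl14, an F-box substrate receptor of ubiquitin ligases, was at 8.92 CPM in the control, 11.9 with UPM, 11.9 at TZ 1.25, 24.3 at TZ 2.5 and 29.4 at TZ 5, which was 2.48-fold over UPM (1.92 to 3.21) and 3.30-fold over the control. Its values in TZ 2.5 and TZ 5 stood above those of the other 3 libraries. Cmtr2, an mRNA cap methyltransferase gene, was at 7.19, 7.71, 7.48, 12.4 and 15.2 CPM, with a fold of 1.98 (1.42 to 2.77) over UPM and 2.12 over the control. Ctdsp1, a small phosphatase gene, was 1.97-fold over UPM and 1.96-fold over the control. Sil1, which helps the ER chaperone BiP exchange nucleotide, was at 7.45, 7.19, 9.70, 8.23 and 14.2 CPM, 1.98-fold over UPM and 1.91-fold over the control.

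The lowest folds were sorted by the control in the same way. Mybl1, which encodes the transcription factor A-Myb, was at 9.18 CPM in the control, 18.8 with UPM, 11.5 at TZ 1.25, 11.3 at TZ 2.5 and 7.25 at TZ 5. UPM was the library that stood out, and the fold of 0.385 over UPM (0.274 to 0.535) became 0.79 over the control. Ifnar1, a chain of the type I interferon receptor, at 13, 21.3, 19.3, 15.9 and 11.3 CPM, was 0.531-fold over UPM (0.4 to 0.700) and 0.867-fold over the control. Stx5a, a SNARE gene of ER to Golgi traffic, and Inpp5f, a phosphoinositide phosphatase gene, were also nearer to the control, at 0.805-fold and 0.768-fold of it.

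Tprn, Rnf24, Ap5s1 and Ceacam16 were low against both libraries. Tprn was at 16 CPM in the control, 15 with UPM, 11.1 at TZ 1.25, 9.96 at TZ 2.5 and 7.25 at TZ 5, a fold of 0.483 (0.339 to 0.678) over UPM and 0.454 over the control. Rnf24, a RING-finger gene, was at 13.8, 14.6, 8.59, 5.49 and 7.25 CPM, so that TZ 2.5 was lower still than TZ 5. Ap5s1, of the AP-5 adaptor complex, was 0.525-fold over UPM and 0.619-fold over the control, and Ceacam16 0.528-fold and 0.573-fold. Prorp, the nuclease of mitochondrial RNase P, and Atg4a, a protease that processes autophagy proteins, were 0.525-fold and 0.535-fold over UPM and 0.637-fold and 0.689-fold over the control.

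**Figure D2:**
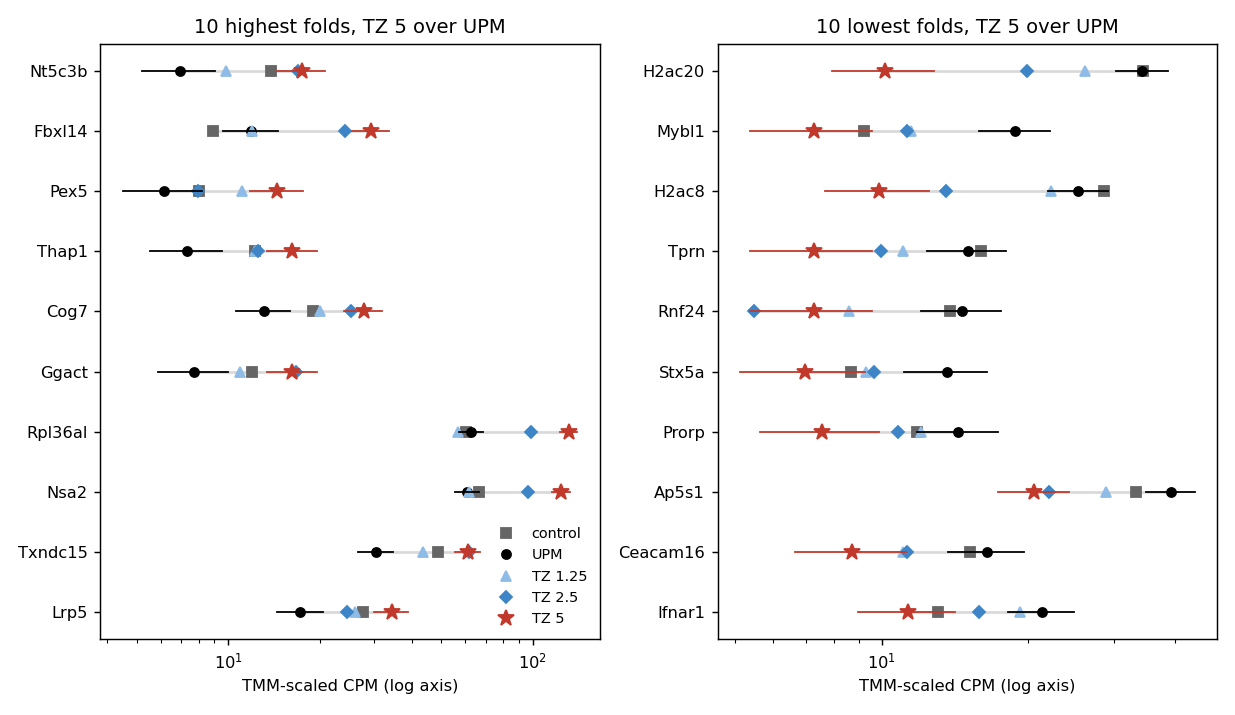
TMM-scaled CPM on log axes of the 10 genes with the highest (left) and the 10 with the lowest (right) called folds of TZ 5 over UPM, 1 symbol per library, with 95% counting intervals on UPM and TZ 5. For Nt5c3b and Mybl1 the control lies on the side of TZ 5, while for Fbxl14, Rpl36al and H2ac20 it lies by UPM.

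At 6 genes the TZ 5 library stood at least 1.5-fold apart from each of the other 4 libraries in 1 direction, which is 0.0763% of the genes measured over all 5 libraries. The same count was 15 (0.193%) for the control, 11 (0.141%) for UPM, 4 (0.0513%) for TZ 1.25 and 5 (0.0638%) for TZ 2.5, so TZ 5 did not hold more genes to itself than the control or UPM did. The 4 genes high in TZ 5 were Ifit1, Parva, Ptges3l and Rpa3, and the 2 low ones were H2ac20 and Ubtd1 (of these Parva, Ptges3l and Rpa3 are named after their values were seen). Rpa3, a subunit of the single-stranded DNA binding protein RPA, was at 9.85 CPM in the control, 10.6 with UPM, 12.9 at TZ 1.25, 10.1 at TZ 2.5 and 19.9 at TZ 5, a fold of 1.88 (1.42 to 2.50) over UPM. Parva, the focal adhesion protein alpha-parvin, was at 11.2, 11.8, 10.5, 10.8 and 18.7 CPM (1.59-fold, 1.21 to 2.11). Ubtd1, a ubiquitin-domain gene, was at 21.3, 25.6, 20.8, 23.0 and 13.8 CPM (0.538-fold, 0.417 to 0.691). None of the 6 stayed apart at a fold of 2.

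The UPM library stood apart from the other 4 at 11 genes, and by that choice each of them passes 1.5-fold in TZ 5 over UPM. Scd1, a fatty acid desaturase gene, was at 12.6 CPM in the control, 21.3 with UPM, 11.6 at TZ 1.25, 13.9 at TZ 2.5 and 13.8 at TZ 5 (0.647-fold over UPM, 1.09-fold over the control). Nlrp1b, an inflammasome sensor gene, was at 14.8, 8.63, 15.7, 17 and 15.1 CPM (1.75-fold over UPM, 1.02-fold over the control). Chosen after their values were seen, the interferon-induced gene Ifi27l2a was at 26.8 CPM in UPM and 16.2 to 16.5 in the other 4 libraries, and Ltbr, the lymphotoxin beta receptor, at 65.1 in UPM and 100.9 to 121 in the others. Xdh, the purine-degrading xanthine dehydrogenase, was at 26.7 CPM in UPM and 43.8 to 50.8 elsewhere.

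The lowest fold belonged to a gene of the replication-dependent histones, which package newly made DNA in S phase and whose mRNAs end in a stem-loop in place of a poly(A) tail. The 250 bases before the annotated start of H2ac20 (chr3:96220881-96221130, minus strand) and H2ac8 (chr13:23571221-23571470, minus strand), from RefSeq on build GRCm38.p6, are shown because these genes had the lowest and the third lowest fold and because histone promoters are known for CCAAT boxes. Capitals mark CCAAT on either strand (ATTGG on the reverse).
H2ac20: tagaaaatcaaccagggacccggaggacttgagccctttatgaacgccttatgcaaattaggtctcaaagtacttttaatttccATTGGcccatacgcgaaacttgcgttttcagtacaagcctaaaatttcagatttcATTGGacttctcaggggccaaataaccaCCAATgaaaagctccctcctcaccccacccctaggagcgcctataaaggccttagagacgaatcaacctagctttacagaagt
H2ac8: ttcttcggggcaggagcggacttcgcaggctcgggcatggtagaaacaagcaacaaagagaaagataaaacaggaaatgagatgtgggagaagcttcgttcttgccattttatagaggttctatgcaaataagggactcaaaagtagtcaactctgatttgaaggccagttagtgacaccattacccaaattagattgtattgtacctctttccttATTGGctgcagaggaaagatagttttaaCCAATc
The H2ac20 sequence holds 3 matches and that of H2ac8 holds 2, the nearer to the start in each window on the strand of the gene. The last match in H2ac8 lies almost at the annotated start, and whether that start is the one used was not tested. A CCAAT match was in 4 of 4 measured histone genes with a promoter in the table, in windows of 300 bases from 250 before to 50 after the start, and in 42.5% of the promoters of all measured genes. A match of so short a motif is a description and not a binding site.

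H2ac20 was at 34.3 CPM in the control, 34.2 with UPM, 26.2 at TZ 1.25, 19.9 at TZ 2.5 and 10.2 at TZ 5, which was 0.297-fold over UPM (0.224 to 0.387) and 0.296-fold over the control. H2ac8 was at 28.6, 25.4, 22.3, 13.6 and 9.86 CPM, 0.389-fold over UPM (0.291 to 0.515). H1f5, a linker histone gene, was at 30.9, 35.5, 30.1, 24 and 19.6 CPM, 0.551-fold over UPM (0.445 to 0.680). In each of these 3 genes the control and UPM were both above TZ 2.5, and TZ 2.5 above TZ 5.

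Only 6 of 62 replication-dependent histone genes in the files passed the minimum level. Of these 3 were called lower (50% beside 2.37% of all measured genes) and 0 higher. Their median log2 fold was −0.71 over UPM and −0.59 over the control. Chosen after their values were seen, the other 3 were H1f4 at 0.674-fold (0.610 to 0.745), H2bc21 at 0.921-fold and H2bc4 at 1.01-fold, so the list did not move as one. Of 8 measured histone variant genes with poly(A) tails 1 was called lower (12.5%), H1f10 at 0.625-fold (0.505 to 0.770), and the median was 0.02. The small nucleolar RNA share, another class without a tail, was also lowest in TZ 5, at 0.108% of counts beside 0.234% in UPM, and its part in the histone values was not tested. In bulk RNA fewer cells in S phase, less of these mRNAs per cell and a different capture of untailed mRNA cannot be told apart.

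Shares of called genes in the cell cycle lists were near those of all measured genes, 3.63% higher and 2.37% lower. Of 41 measured genes of DNA replication 1 was called higher and 1 lower (2.44% each), with a median log2 fold of 0.07. Fen1, the flap endonuclease of lagging-strand synthesis, was at 75.9 CPM in the control, 57.4 with UPM, 65.8 at TZ 1.25, 92.1 at TZ 2.5 and 95.1 at TZ 5 (1.66-fold, 1.47 to 1.88). Mcm7, a subunit of the replicative helicase, was at 503, 507, 436, 330 and 325 CPM (0.642-fold, 0.609 to 0.676), low in TZ 2.5 and TZ 5 alike. Of 34 measured mitosis genes 1 (2.94%) was called, Cdc20, an activator of the anaphase-promoting complex, at 0.654-fold (0.602 to 0.710), and the median was −0.12.

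Targets of p53, the transcription factor that answers DNA damage and other stress, were below their UPM value in TZ 5 in 13 of 15 measured genes. Cdkn1a, which encodes the cell cycle inhibitor p21, was at 547 CPM in the control, 394 with UPM, 320 at TZ 1.25, 267 at TZ 2.5 and 210 at TZ 5. The fold was 0.534 (0.501 to 0.568) over UPM and 0.385 over the control, and the 5 values stood in the order of the treatments. Bbc3, which encodes the apoptosis inducer PUMA, had the same order, at 76.5, 53.7, 48.9, 38.0 and 33.8 CPM, and was 0.629-fold over UPM (0.533 to 0.741).

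These were the 2 called members of 15 measured (13.3% beside 2.37% of all measured genes called lower), and 0 were called higher. The median log2 fold of the 15 was −0.24 over UPM and −0.39 over the control, while UPM over the control was −0.14. Of all measured genes 49.2% had a fold under 1. TZ 5 had the lowest value of the 5 libraries in 10 of 15 members and the control the highest in 10 of 15. The same counts over all measured genes are not given here. The summed level of the 15 was 1498 CPM in the control, 1227 with UPM, 1107 at TZ 1.25, 999 at TZ 2.5 and 911 at TZ 5. Cdkn1a alone made up 547, 394, 320, 267 and 210 CPM of these sums, a large part of the fall but not all of it. Mdm2, which encodes the ligase that degrades p53, and Bax, a pore-forming inducer of apoptosis, chosen after their values were seen, were 0.952-fold (0.872 to 1.04) and 0.973-fold (0.809 to 1.17), so not every target had the form of Cdkn1a. Sesn2, a stress-induced inhibitor of mTORC1 signalling named on the same ground, did not reach the minimum level, at 12.6 CPM in the control, 10.1 with UPM, 6.51 at TZ 1.25, 6.93 at TZ 2.5 and 2.61 at TZ 5.

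Genes of the cytosolic ribosome were called in 1 direction. Of 80 measured members 10 were called higher (12.5% beside 3.63% of all measured genes) and 0 lower, and 64 had a fold above 1. The median log2 fold was 0.17 over UPM and 0.19 over the control, while UPM over the control was 0.04. TZ 5 had the highest of the 5 values in 56 of 80 members, UPM in 11, TZ 2.5 in 8, the control in 5 and TZ 1.25 in 0. The same count over all measured genes is not given here, so these counts are a description. Their summed level was 31205 CPM in the control, 31493 with UPM, 30534 at TZ 1.25, 33914 at TZ 2.5 and 35115 at TZ 5, so that TZ 2.5 stood between the 3 lower libraries and TZ 5.

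Rpl36al was at 60.2 CPM in the control, 62.6 with UPM, 56.7 at TZ 1.25, 98.6 at TZ 2.5 and 131 at TZ 5, a fold of 2.10 (1.88 to 2.35) over UPM and 2.18 over the control. Rpl23 was at 276, 285, 298, 451 and 524 CPM (1.84-fold, 1.74 to 1.94), and Rpl21 at 162, 161, 172, 240 and 279 CPM (1.73-fold, 1.61 to 1.86). In all 3 genes the control, UPM and TZ 1.25 were close together and below both higher doses. Rps27a, which encodes a ribosomal protein fused to ubiquitin, was at 217, 205, 206, 312 and 352 CPM (1.72-fold, 1.61 to 1.83). The other 6 called members, chosen after their values were seen, were Rpl4, Rpl5, Rpl36a, Rps19, Rps23 and Rps24, with folds from 1.56 for Rps19 to 1.67 for Rpl5. Ribosomal protein genes have many pseudogene copies and Rpl36a and Rpl36al are close paralogs, so how their reads were assigned makes single values uncertain.

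Ribosome assembly and translation factors did not share that shift. Of 39 nucleolar and assembly genes 1 was called, Nsa2, a factor of the large subunit, at 66.6 CPM in the control, 60.9 with UPM, 61.5 at TZ 1.25, 96.6 at TZ 2.5 and 124 at TZ 5 (2.03-fold, 1.81 to 2.28). Of these 39, 2.56% were called higher beside 3.63% of all measured genes, and their median log2 fold was 0.01 over UPM. Translation factors had 2 of 36 called higher and 2 lower, 5.56% each beside 3.63% and 2.37% of all measured genes. Their median was 0.08. Pabpc1, which encodes the cytoplasmic poly(A)-binding protein, had the most counts of the genes called lower, at 6922, 6122, 5998, 4533 and 3969 CPM (0.648-fold, 0.639 to 0.658).

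For Pabpc1 the control value was the highest of the 5. Eif5a, an elongation factor gene, was at 705 CPM in the control, 738 with UPM, 628 at TZ 1.25, 521 at TZ 2.5 and 472 at TZ 5 (0.640-fold, 0.612 to 0.668). In the other direction Eif3a, the largest subunit of the initiation factor eIF3, was at 829, 704, 829, 971 and 1096 CPM (1.56-fold, 1.5 to 1.61), and the helicase gene Eif4a2 was 1.76-fold (1.34 to 2.32). Among abundant genes of RNA handling called lower was Snrpd3, of the spliceosomal Sm core, at 502, 590, 553, 428 and 351 CPM (0.594-fold, 0.566 to 0.625). Ddx10, an RNA helicase gene, was 1.79-fold (1.63 to 1.96).

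**Figure D3:**
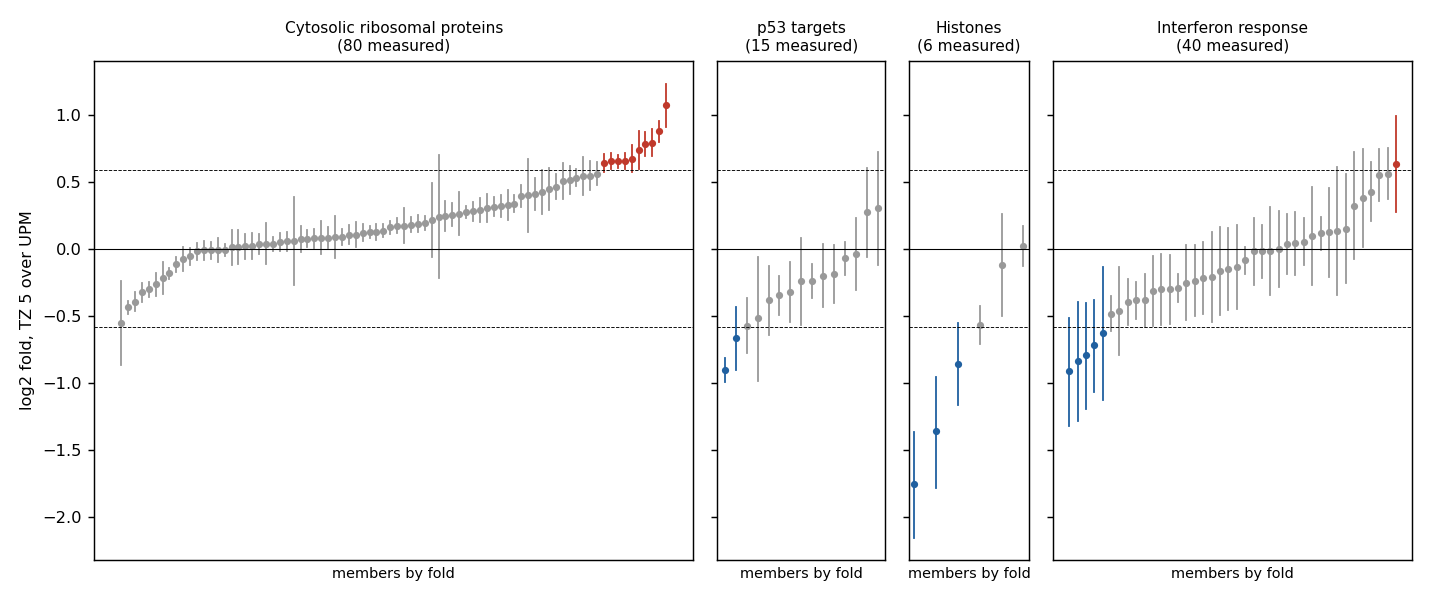
Log2 fold of TZ 5 over UPM with its 95% counting interval for each measured member of 4 gene lists, sorted by fold, with called members in red or blue and dashed lines at 1.5-fold. Of the 80 ribosomal proteins 64 lie above 0, while 13 of 15 p53 targets lie below it.

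Respiratory genes were called mostly upward without a shift of the whole list. ND4, a mitochondrially encoded subunit of complex I, was at 7139 CPM in the control, 7318 with UPM, 7621 at TZ 1.25, 11137 at TZ 2.5 and 13564 at TZ 5, a fold of 1.85 (1.83 to 1.87). CYTB, the mitochondrially encoded cytochrome b, was at 6103, 5772, 6151, 7632 and 9980 CPM (1.73-fold, 1.71 to 1.75). Both were highest in TZ 5 and next in TZ 2.5. Chosen after their values were seen, the other mitochondrial mRNAs did not pass the limit. ND1 was 1.31-fold (1.29 to 1.33) and, like ND4 and CYTB, highest in TZ 5 and next in TZ 2.5. The others were ND5 at 0.998-fold, ND6 at 0.941-fold, ND2 at 0.935-fold and COX1 at 0.835-fold. ND2, ND1 and CYTB are read from the same strand of 1 genome, so the folds of single mitochondrial mRNAs differed within it. ATP6, COX2, COX3, ND3 and ND4L were listed at 0 in the files, which need not mean that they were absent.

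Of 71 nuclear subunits of oxidative phosphorylation 6 were called higher (8.45% beside 3.63%) and 1 lower, and the median log2 fold was 0.02. Atp5j, of ATP synthase, was at 74.7 CPM in the control, 76.3 with UPM, 74.6 at TZ 1.25, 117 at TZ 2.5 and 137 at TZ 5 (1.80-fold, 1.62 to 2). The complex I genes Ndufb3, at 137, 121, 139, 172 and 207 CPM, and Ndufa5, at 109, 92.3, 89.5, 139 and 154 CPM, were 1.71-fold and 1.67-fold. Ndufa12, of the same complex, went the other way at 190, 222, 196, 163 and 142 CPM (0.642-fold, 0.592 to 0.694). Lrpprc, which stabilises mitochondrial mRNAs, was at 109, 77.9, 92.3, 131 and 143 CPM (1.84-fold, 1.66 to 2.04). Of 75 mitochondrial ribosomal proteins 1 was called higher, Mrpl55 at 1.55-fold, and 1 lower, Mrps27 at 0.569-fold, with a median of 0.09. Each was 1.33% of the list, beside 3.63% higher and 2.37% lower of all measured genes. Mrps27 was at 25.7 CPM in the control, 40.5 with UPM and 23.1 at TZ 5, so the UPM value was the high one. Mrpl55 was at 18.4, 15.2 and 23.5 CPM in the same order.

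Proteasome genes were called in both directions. Pomp, the assembly chaperone of the proteasome, was at 272 CPM in the control, 206 with UPM, 241 at TZ 1.25, 371 at TZ 2.5 and 398 at TZ 5 (1.94-fold over UPM, 1.82 to 2.06, and 1.46-fold over the control). It was the 1 member of 36 called higher (2.78% beside 3.63% of all measured genes), and 2 were called lower (5.56% beside 2.37%), Psmb3 at 0.647-fold and Psmd6 at 0.666-fold, and the median was 0.13. Psmd6 lost its call under at least 1 other scaling. Of 25 heat shock genes and 24 genes of the unfolded protein response and ER chaperones 0 were called, with medians of 0.07 and 0.01. Of 26 autophagy genes 0 were called, with a median of 0.05. At 6% called either way over all measured genes, lists of these sizes can hold few calls.

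The integrated stress response had 1 of 22 measured members called higher (4.55% beside 3.63% of all measured genes) and 0 lower. Its median log2 fold was 0.16 over UPM and −0.12 over the control. Pck2, the mitochondrial PEP carboxykinase, was the called member, at 29.0 CPM in the control, 27.7 with UPM, 27.4 at TZ 1.25, 34.6 at TZ 2.5 and 44.7 at TZ 5 (1.61-fold, 1.35 to 1.93). Atf4, the central transcription factor of this response, was at 702, 525, 606, 693 and 672 CPM (1.28-fold, 1.23 to 1.34). Ddit3, which encodes the factor CHOP, was at 98.6, 53.6, 74.8, 75.6 and 65.3 CPM (1.22-fold, 1.06 to 1.4). For both, UPM was the lowest library and TZ 5 lay between it and the control. Trib3 was 1.25-fold, Asns, the asparagine synthetase, 1.23-fold and Chac1, which degrades glutathione, 0.730-fold, and none passed the limit. Trib3 was at 47.4 CPM in the control, 26.3 with UPM and 32.9 at TZ 5.

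Amino acid transport and tRNA charging had 1 of 27 called higher, the methionyl-tRNA synthetase gene Mars1 at 1.5-fold, and 1 lower, the glutamine transporter gene Slc38a2 at 1315 CPM in the control, 1420 with UPM, 1315 at TZ 1.25, 1054 at TZ 2.5 and 940 at TZ 5 (0.662-fold). Both lost the call under at least 1 other scaling. Each made up 3.7% of the 27, beside 3.63% higher and 2.37% lower of all measured genes. Antioxidant genes under NRF2 had 1 of 29 called higher and 1 lower, 3.45% each beside 3.63% and 2.37% of all measured genes. Their medians were 0.07 over UPM and 0.33 over the control. Gsta3, a glutathione transferase, was at 5.59 CPM in the control, 21 with UPM, 27.7 at TZ 1.25, 25.5 at TZ 2.5 and 33.8 at TZ 5. Its fold was 1.61 (1.31 to 1.98) over UPM, on top of a control value well below all 4 particle libraries. Osgin1 was 0.619-fold over UPM (0.434 to 0.875) and 0.862-fold over the control. Its level was 8.92 CPM in the control, 12.4 with UPM and 7.69 at TZ 5. Hmox1, the haem-degrading enzyme, was 1.05-fold over UPM. Of 12 genes of metal and iron handling 0 were called, beside 6% of all measured genes either way, with a median of 0.00.

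Interferon-stimulated genes are the antiviral program induced through the receptor that Ifnar1 helps form, and the interferon list here also holds receptor genes such as Ifnar1. The called members of this list were mostly lower in TZ 5 than in UPM, with an exception in Ifit1. The 250 bases before the starts of Ifit1 (chr19:34640639-34640888, plus strand) and Ifit3 (chr19:34583279-34583528, plus strand), from RefSeq on GRCm38.p6, are shown because these 2 related genes on 1 chromosome were called in opposite directions. Capitals mark the core of the interferon-stimulated response element, which is TTTC, any 2 bases and TTTC again, searched on both strands.
Ifit1: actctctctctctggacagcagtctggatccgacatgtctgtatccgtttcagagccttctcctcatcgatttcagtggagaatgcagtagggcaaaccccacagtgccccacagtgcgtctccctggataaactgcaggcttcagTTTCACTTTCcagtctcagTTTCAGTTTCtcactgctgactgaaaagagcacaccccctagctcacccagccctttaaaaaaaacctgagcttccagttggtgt
Ifit3: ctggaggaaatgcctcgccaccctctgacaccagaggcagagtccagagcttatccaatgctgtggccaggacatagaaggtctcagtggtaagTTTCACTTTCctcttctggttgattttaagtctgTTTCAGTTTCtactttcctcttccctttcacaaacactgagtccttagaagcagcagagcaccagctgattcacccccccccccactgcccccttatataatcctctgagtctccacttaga
Each sequence holds 2 matches, and the same pair of 10-base words occurs in both.

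Ifit1, whose protein binds viral RNA, was at 12.2 CPM in the control, 14.9 with UPM, 11.8 at TZ 1.25, 14.7 at TZ 2.5 and 23.1 at TZ 5 (1.55-fold over UPM, 1.21 to 1.99). Ifit3, named after its values were seen, was at 13, 12.5, 7.76, 9.67 and 8.12 CPM (0.647-fold, 0.457 to 0.909). Ifit1 was highest in TZ 5, and Ifit3 was higher in the control and UPM than in all 3 libraries with trazodone. Dhx58, an RNA-sensing helicase gene, was at 12.4, 17.1, 8.73, 10.5 and 9.57 CPM (0.559-fold, 0.409 to 0.757), and Xaf1, a proapoptotic gene, at 13.8, 20.9, 15.1, 13.1 and 12 CPM (0.576-fold, 0.436 to 0.755).

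Of 40 measured members of this list 5 were called lower (12.5% beside 2.37% of all measured genes) and 1 higher (2.5% beside 3.63%). For Dhx58, Xaf1 and Ifnar1 among them UPM was the highest library, and TZ 5 was 0.773-fold, 0.870-fold and 0.867-fold over the control. For Ifi27l2a UPM stood apart from all the other libraries, so at these genes the UPM value was the high one. The remaining gene called lower, Ifit3, was low in TZ 5 against the control and UPM alike. The median log2 fold was −0.14 over UPM and −0.08 over the control. The summed level was 2117 CPM in the control, 2056 with UPM, 1826 at TZ 1.25, 1770 at TZ 2.5 and 1886 at TZ 5, so TZ 5 was not the lowest. Isg15, a ubiquitin-like modifier, was at 78.7, 40.3, 49.1, 49.7 and 54.1 CPM (1.34-fold, 1.15 to 1.57), not called. This core was in the 300-base promoter window of 13 of 32 members with one (40.6%) and of 3.84% of all measured genes. Members with the motif had a fold above 1 in 8 cases and below 1 in 5, with a median of 0.04, and the 19 without it 5 and 14, with a median of −0.17.

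Inflammatory mediators bear on the neuroinflammation of the study's title. Of 14 measured cytokines and chemokines 0 were called in either direction, beside 6% of all measured genes, a share that leaves room for few calls in so short a list. Their median was −0.19 over UPM and −0.18 over the control on the log2 scale. Tnf was at 74.9 CPM in the control, 70.2 with UPM, 75.1 at TZ 1.25, 81.1 at TZ 2.5 and 81.2 at TZ 5 (1.16-fold, 1.03 to 1.31). Ccl2, a chemokine that draws monocytes, was at 81.1, 104, 93.8, 70.6 and 83.0 CPM (0.799-fold, 0.716 to 0.890), which in TZ 5 was close to the control. Nos2, which makes nitric oxide, was at 17.8, 11.8, 12.2, 11 and 9.57 CPM (0.814-fold, 0.583 to 1.13). Il1b was under the minimum level, at 2.80 to 4.06 CPM, and a 1.5-fold difference was not detectable there.

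NF-kB signalling had 2 of 24 measured genes called higher (8.33% beside 3.63% of all measured genes) and 0 lower, with a median of 0.04. They encode kinases of this pathway, Ikbke at 12.9 CPM in the control, 13.3 with UPM, 15.8 at TZ 1.25, 21.2 at TZ 2.5 and 21.2 at TZ 5 (1.59-fold, 1.23 to 2.07) and Ikbkb at 43.5, 33.7, 38.8, 49.2 and 50.9 CPM (1.51-fold, 1.28 to 1.78). Ikbkb lost its call under at least 1 other scaling. Toll-like receptors and the inflammasome had 1 of 25 called higher (4% beside 3.63%), Nlrp1b, whose UPM value is the low one. Stat3, which carries signals from the IL-6 family and IL-10, was at 173, 203, 172, 151 and 129 CPM (0.637-fold, 0.586 to 0.693) and Map3k3, a kinase upstream of MAPK and NF-kB, 0.640-fold.

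Of the other signalling lists, immediate-early genes had 1 of 15 called higher, 6.67% beside 3.63% of all measured genes. The called gene was Klf4, at 6.12 CPM in the control, 8.36 with UPM, 9.84 at TZ 1.25, 8.23 at TZ 2.5 and 13.9 at TZ 5 (1.66-fold, 1.2 to 2.32). Wnt signalling had 2 of 19 called higher (10.5% beside 3.63%), Lrp5 and the scaffold gene Dvl2 (1.66-fold), while its median was −0.10. Dvl2 was at 23.3 CPM in the control, 17.8 with UPM and 29.4 at TZ 5. Of 34 MAPK, PI3K and cAMP genes, Mapk8, which encodes the kinase JNK1, was called higher (1.5-fold over UPM, 1.03-fold over the control, the call lost under at least 1 other scaling) and Rptor, of mTORC1, lower (0.636-fold over UPM and 1.03-fold over the control). Mapk8 and Rptor were each 2.94% of their list, beside 3.63% higher and 2.37% lower of all measured genes. Of 18 genes of TGF-beta signalling and Id factors 0 were called, beside 6% of all measured genes either way, with a median of −0.10.

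Genes that mark microglial states were split. Cd9, a tetraspanin of the disease-associated state, was at 118 CPM in the control, 106 with UPM, 150 at TZ 1.25, 181 at TZ 2.5 and 209 at TZ 5, a fold of 1.97 (1.80 to 2.14) over UPM and 1.76 over the control. Gpnmb, a lysosomal and membrane glycoprotein of the same state, was at 2203, 1970, 2555, 2872 and 2987 CPM (1.52-fold, 1.48 to 1.55), and lost its call under at least 1 other scaling. Both were higher at each step of dose. Timp2, an inhibitor of metalloproteases, was at 992, 1303, 1084, 891 and 835 CPM (0.640-fold over UPM, 0.620 to 0.662, and 0.841-fold over the control). These were the 3 called of 25 disease-associated genes, 8% higher and 4% lower beside 3.63% and 2.37% of all measured genes. The median of the list was 0.02.

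Of 12 measured homeostatic genes 1 was called lower, 8.33% beside 2.37% of all measured genes. It was Cx3cr1, the fractalkine receptor, at 14 CPM in the control, 16.6 with UPM, 18.6 at TZ 1.25, 15.3 at TZ 2.5 and 10.2 at TZ 5 (0.612-fold, 0.450 to 0.825). Of 24 phagocytic and scavenger receptors and 16 genes of MHC class I and antigen presentation 0 were called, with medians of −0.03 and 0.03. Over all measured genes 6% were called either way, so lists of these sizes can hold few calls. Cd36, a scavenger receptor for lipids, was at 1.44 to 2.66 CPM, too low for a 1.5-fold difference to be detected. Dstn, which severs actin filaments, was among the lowest abundant genes at 389, 419, 371, 304 and 248 CPM (0.592-fold, 0.558 to 0.628).

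Lipid genes had single calls in both directions. Fabp4, a fatty acid carrier of macrophages, was at 57.9 CPM in the control, 43.4 with UPM, 52.7 at TZ 1.25, 69.4 at TZ 2.5 and 86.4 at TZ 5 (1.99-fold over UPM, 1.74 to 2.29, and 1.49-fold over the control). Crot, a peroxisomal carnitine acyltransferase, was at 17.2, 36.3, 26.1, 20.6 and 20.3 CPM (0.559-fold over UPM, 0.453 to 0.687, and 1.18-fold over the control), so the UPM value was the high one. They were the 2 called of 19 genes of lipid droplets, PPAR and fatty acid oxidation, with a median of −0.05. Each was 5.26% of the list, beside 3.63% higher and 2.37% lower of all measured genes. Among 22 peroxisomal genes Pex5, the import receptor, was called higher, at 7.99, 6.14, 11.1, 7.94 and 14.5 CPM (2.36-fold, 1.65 to 3.41), and 2 were called lower, among them Pex16, a membrane assembly factor, at 0.573-fold over UPM and 0.512-fold over the control. The peroxisomal calls were 4.55% higher and 9.09% lower, beside 3.63% and 2.37% of all measured genes.

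Of 21 genes of cholesterol synthesis, which several psychotropic drugs are known to disturb, 0 were called, beside 6% of all measured genes either way. Their folds ran from 0.672 to 1.33, and the median log2 fold was −0.17 over UPM and −0.06 over the control. Hmgcs1 was 0.992-fold (0.916 to 1.08) and Dhcr7, the last enzyme of one branch, 0.832-fold (0.702 to 0.983). Of 23 genes of LXR, cholesterol efflux and fatty acid synthesis 1 was called higher and 2 lower. These were 4.35% and 8.7% beside 3.63% and 2.37% of all measured genes. The medians of the list were −0.13 over UPM and −0.05 over the control. Rxra, the partner receptor of LXR, was 1.5-fold (call lost under at least 1 other scaling), and Nr1h2, which encodes LXR beta, was at 35.4 CPM in the control, 49.4 with UPM, 40.1 at TZ 1.25, 31.3 at TZ 2.5 and 30.7 at TZ 5 (0.622-fold, 0.524 to 0.738). Abca1, the cholesterol efflux pump, was 0.784-fold (0.705 to 0.873).

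The lysosome, where cationic amphiphilic drugs collect, had 1 of 42 genes called higher, Glb1, the beta-galactosidase, at 47.3 CPM in the control, 43.0 with UPM, 48.0 at TZ 1.25, 53.6 at TZ 2.5 and 66.3 at TZ 5 (1.54-fold, 1.33 to 1.78). Tfeb, the master regulator of lysosomal genes, was called lower at 8.52, 13.5, 12.2, 10.7 and 8.12 CPM (0.603-fold over UPM, 0.428 to 0.843, and 0.953-fold over the control). Glb1 and Tfeb were each 2.38% of the list, beside 3.63% higher and 2.37% lower of all measured genes. The median of the list was 0.03, and Lamp1, a lysosomal membrane protein, was 0.927-fold. Glycolysis and hypoxia had 2 of 21 called higher (9.52% beside 3.63%), Gapdh and Pgk1, at 20.5 and 21.7 CPM in UPM and 38.1 and 35.8 in TZ 5. Both genes have many pseudogene copies and such levels are low for them, so how their reads were assigned is uncertain.

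The known targets of trazodone were mostly not detected in these cells. Of 21 receptors, transporters and other targets in the files 12 were at 0 counts in all 5 libraries, among them Htr2a, Htr2c, Htr1a, Adra1b and Adra2a, and 3 reached the minimum level. Htr2b, a serotonin receptor, was at 12.4 CPM in the control, 12.7 with UPM, 9.56 at TZ 1.25, 10.8 at TZ 2.5 and 14.9 at TZ 5 (1.18-fold, 0.884 to 1.57). Adra1a, an alpha-1 adrenergic receptor, was 0.852-fold (0.655 to 1.11), and 0 of the 3 were called. Hrh1, the histamine receptor, was at 1.30 to 2.93 CPM, and Htr7 had a count in TZ 2.5 only. Of 19 genes of drug metabolism and transport 5 were measured, 0 were called and 8 were at 0 in all libraries. With 6% of all measured genes called either way, lists as short as these can hold few calls.

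**Figure D4:**
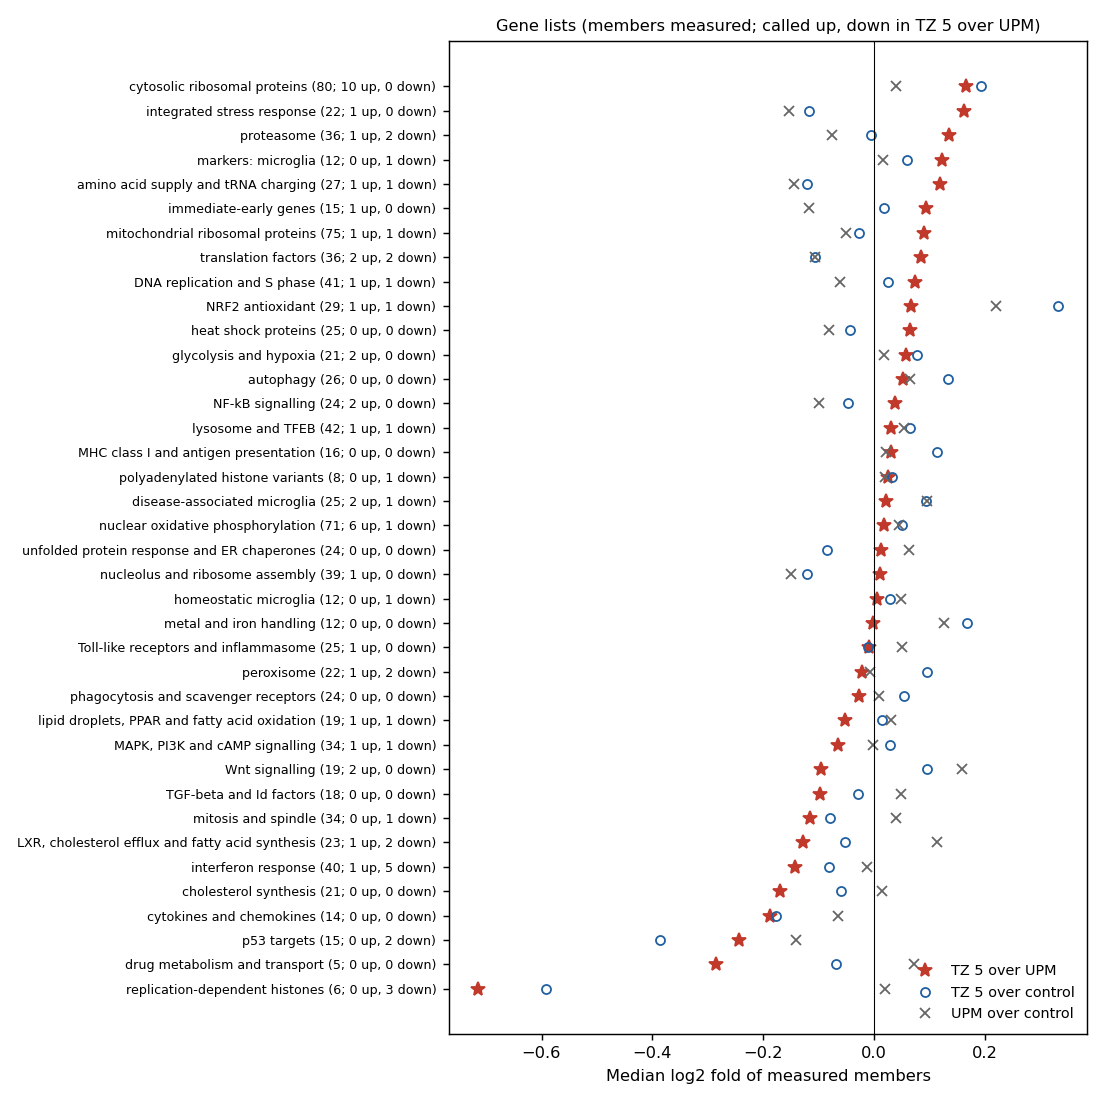
Median log2 fold of the measured members of each gene list for TZ 5 over UPM (stars), TZ 5 over the control (circles) and UPM over the control (crosses), with the number measured and called beside each name. Ribosomal proteins (0.17) stand at the top for TZ 5 over UPM, and p53 targets (−0.24) and replication-dependent histones (−0.71) near the bottom.

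The 3 libraries outside the pair give a reading of the called genes that neither UPM nor TZ 5 entered. In TZ 2.5 over TZ 1.25 the 292 genes called higher had a median log2 ratio of 0.27 and 243 of them (83.2%) lay above 0, beside 0.00 and 50.7% for all measured genes. Of the 292, 41 (14%) were also called higher in that pair and 0 lower, beside 1.24% higher of all measured genes. The 191 genes called lower had a median of −0.19, 137 (71.7%) lay below 0, and in that pair, where 2.14% of genes were called either way, 6 of them were lower and 2 higher, beside 0.695% lower and 1.24% higher of all measured genes. Against the control the medians in TZ 2.5 were 0.29 and −0.22, with 41 of the higher genes called higher, and 20 of the lower genes called lower and 2 called higher. Of all measured genes 2.04% were called higher and 1.03% lower there, and 3.34% either way of those at 10 CPM or more in that pair.

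TZ 1.25 over the control showed no such split for the higher genes, with a median of 0.00 and 145 of 292 (49.7%) above 0. For the lower genes it was −0.06, with 112 of 191 (58.6%) below 0 beside 53.3% of all measured genes. Among the libraries outside the pair, the higher genes thus set TZ 2.5 apart from the control and TZ 1.25. The lower genes did so in part, with 28.3% of them above 0 in TZ 2.5 over TZ 1.25. TZ 5 and UPM lie on opposite sides because their fold chose the genes. Small nucleolar RNA took 0.108% in TZ 5 and 0.150% in TZ 2.5, beside 0.189% to 0.234% in the control, UPM and TZ 1.25. Mitochondrial ribosomal RNA took 7.06% and 7% beside 7.94% to 8.80% in the same order. The part of these shares in the result was not tested.

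**Figure D5:**
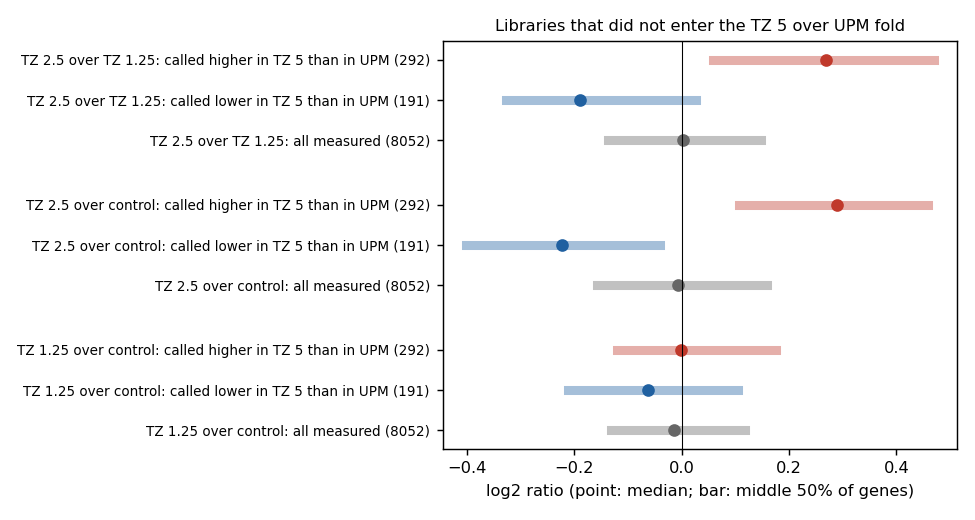
Log2 ratios between libraries that did not enter the fold of TZ 5 over UPM, for the genes called higher (red), called lower (blue) and all measured genes (grey), with points at the median and bars over the middle 50% of genes. The higher genes have a median of 0.27 in TZ 2.5 over TZ 1.25 and 0.00 in TZ 1.25 over the control.

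Genes called lower were the richer in GC. The median GC content of their transcripts was 50.5% for genes called higher, 53.9% for those called lower and 50.4% for all measured genes, from GENCODE M21 transcripts held for 284, 184 and 7906 of them. Across 5 equal bins of GC content from low to high the genes called lower numbered 24, 24, 26, 43 and 67, while those called higher numbered 54, 58, 53, 63 and 56. The median log2 fold was 0.02 in the lowest bin and −0.05 in the highest, and over the control 0.07 and −0.09. The median transcript length was 1906 bases for genes called higher, 1829 for those called lower and 2134 for all measured genes. Whether GC content or length had a part in the calls was not tested.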

How the data were processed

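The values the authors deposited are raw counts for each gene symbol, with 1 file for each library and totals that differ between files. STAR, edgeR and the build GRCm39 are named in the submitters' processing notes. Which program and annotation were used for counting, and whether strand was used, is not given in the sources used, so overlapping genes, paralogs and genes with pseudogenes are less certain. Every symbol had a name, and each library is 1 sample of its group.

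From these counts, TMM factors (0.991 to 1.01) were computed over the 5 libraries with edgeR 4.0.16 in R 4.3.3, and folds were ratios of scaled CPM. Each fold has a 95% exact conditional binomial (Clopper-Pearson) interval. Without molecular identifiers, intervals and the floor of 3 counts cover counting error only. With 1 library per group no test was possible, and the script was checked on simulated counts. Gene types came from RefSeq and then GENCODE M21 by symbol or synonym. Of 8367 symbols at 10 CPM or more 8052 were protein-coding, and 85 had no type and were left out.

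The 45 lists hold 1355 names, of which 1346 were in the files, 4 by an older symbol. Named genes were the 15 called genes with the highest and lowest folds, the 10 at each end with a mean of at least 100 CPM, up to 3 called members per list and direction, and a set list of inflammation, stress, lipid and trazodone target genes, leaving out predicted genes. Some genes that the rule names are not reported here. Any other gene is marked in the text as picked afterwards. The members and lists were chosen with earlier results of these data known. Promoter windows and transcripts are of GRCm38 builds, and no coordinates of the deposited build are given. The alternatives were other scalings, thinning to the smallest total, other minimum levels, a fold of 2, all symbols, and other reference libraries.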

Additional observations from a re-analysis of the deposited data

How the results depend on the processing

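Beside 292 genes higher and 191 lower, DESeq2 1.42.0 size factors gave 263 and 207, library totals 323 and 173, TMM over protein-coding genes 256 and 215, and thinning 281 and 192, and these settings moved the median of all genes to between −0.01 and 0.02. A fold of 2 left 9 and 5, with 0 genes at which TZ 5 stood apart from all 4 other libraries in place of 6. A mean of at least 1 CPM gave 552 and 373 with 34 apart, at least 30 CPM 125 and 75 with 0 apart, and at least 100 CPM 45 and 25 with 0 apart. With other references, TZ 5 over the control gave 278 and 157, and, chosen after the data were seen, TZ 5 over TZ 1.25 gave 180 and 77 and over TZ 2.5 gave 51 and 42. Of 228 alternative list medians 226 stayed close to the first value and 2 moved, and of 504 alternative folds of named genes 4 moved and 0 reversed. Of 95 named genes with a call 7 lost it under at least 1 scaling or thinning, which were Gpnmb, Ikbkb, Mapk8, Mars1, Psmd6, Rxra and Slc38a2. Nothing here measures how much 2 libraries of 1 group would differ, and depth limits genes at a few CPM. No paired analysis was possible because each group has 1 library.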
